A study of Mus musculus with 14 samples.

Results

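CD45-targeted radioimmunotherapy (CD45 RIT) at 20 µCi was compared with no treatment in marrow cells sorted from endothelial reporter mice, across all genes. The comparison held 2 CD45 RIT libraries and 4 untreated libraries, chosen by the treatment label, out of 14 libraries in the study. All mice carried a Cre recombinase under the Cdh5 promoter and a Rosa26 TdTomato reporter, and cells carrying TdTomato but no lineage markers and no CD45 were sorted 8 days after treatment. The reporter marks every cell whose ancestors expressed Cdh5, which includes blood cells that descend from embryonic endothelium, so the colour alone does not identify an endothelial cell. The labels give neither the age nor the sex of the mice, and do not say whether a library came from 1 mouse or from a pool. P-values therefore measure only the spread between these libraries, which may be technical. The other libraries, used where a gene is set against another treatment, came from 3 samples given 20 µCi of a non-targeted IgG radioimmunotherapy (IgG RIT) and 5 samples given 500 cGy of total body irradiation (TBI).

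Radioimmunotherapy carries a radioactive atom to cells on an antibody. The series title names astatine, an emitter of alpha particles, which deposit their energy within a few cell diameters. CD45, encoded by Ptprc, sits on the surface of nearly all white blood cells and of their precursors but not on vessel or stromal cells. Marrow blood formation depends on a niche of sinusoidal and arterial endothelium, CXCL12-abundant stromal cells that supply chemokine and stem cell factor, osteoblasts, adipocytes and the matrix these cells lay down.

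Depth was alike in both groups, but the 2 CD45 RIT libraries stood apart from the untreated libraries and from each other. The untreated libraries held 24787510 to 31077588 counts, CD45 RIT replicate 1 held 23320156 and replicate 2 held 26823379. Counts were found at 23409 to 25399 genes in the untreated libraries, at 20994 in CD45 RIT replicate 1 and at 17700 in replicate 2. The 10 most counted genes took 3.79% to 4.47% of the counts in untreated libraries, 23.8% in CD45 RIT replicate 1 and 15.6% in replicate 2. Across genes, log2 CPM, the count scaled to a common library size, correlated at 0.906 to 0.944 between untreated libraries and at 0.6725 between the 2 CD45 RIT libraries, a description over genes that are not independent replicates. Of 6546 genes at 10 CPM or more in all 12 other libraries, 116 (1.77%) had 3 counts or fewer in CD45 RIT replicate 1, while 1005 (15.4%) did in replicate 2 and 64 in both. The part of these absent genes in the results was not tested, so each result is given for both libraries. Library numbers in the labels run from 2 to 7 in the untreated group and are 15 and 16 in CD45 RIT, so library order and treatment cannot be told apart. Among the libraries used for reference, the one labelled TBI replicate 6 lay apart from the other 4 TBI libraries. The mean chi-square of the counts per gene was 254.9 to 356.9 between it and those 4, and 40.28 to 53.89 between it and the IgG RIT libraries. Results against TBI are therefore given with and without it.

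Several defining endothelial transcripts were at or near 0 in every library of the comparison. Cdh5, the vascular cadherin whose promoter drives the reporter, had 4, 0, 2 and 6 counts in the untreated libraries and 0 counts in both CD45 RIT libraries. Flt1, Cldn5, Sox17 and Mmrn2 also had 2 counts or fewer in each of these libraries. Of 20 endothelial markers, 6 were too low to test, these 5 and Ptprb, and 11 and 12 had 3 counts or fewer in CD45 RIT replicates 1 and 2. The summed level of the list was 175.8 to 213.2 CPM in untreated libraries, 91.9 CPM in CD45 RIT replicate 1 and 166.4 CPM in replicate 2. The labelled cell type therefore was not borne out by its defining markers, and the samples are called sorted reporter cells here. In bulk samples such as these, fewer cells of a type and less RNA per cell cannot be told apart.

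Of 21509 genes tested, 7116 differed between CD45 RIT and untreated at an adjusted p under 0.05 (edgeR quasi-likelihood test, Benjamini-Hochberg adjustment), which is 33.1%. Higher levels were called at 3115 genes (14.5%) and lower levels at 4001 (18.6%). The called members of each list below are to be read against these 2 shares. Of the 4001 lower genes, 1880 had in both treated libraries 3 counts or fewer, and 146 of the 3115 higher genes had that few in all untreated libraries. The direction split depends on the scaling of the libraries, since 43.8% of the calls were higher with TMM factors, 52.8% with median-of-ratios factors and 22.7% with no factors. The median log2 fold change of all genes tested was -0.37, -0.13 and -1.08 under the same scalings, and a change should be read relative to that. Without CD45 RIT replicate 1 the fit called 4039 genes higher and 7307 lower, and without replicate 2 it called 3028 higher and 4177 lower. Of the 7116 calls, 5880 were kept without replicate 1 and 4667 without replicate 2.

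Both CD45 RIT libraries lay above all untreated libraries at 3773 genes (17.5%) and below all of them at 6403 (29.8%), so the groups did not overlap at 47.3% of the genes tested. The libraries split at 2300 genes (10.7%), where replicate 1 was above and replicate 2 below every untreated library, and at 1275 genes (5.93%) the other way round. Protein-coding genes were called higher (2597) about as often as lower (2557) among 14237 tested. Of 119 immunoglobulin segments, 26 (21.8%) were lower and 0 higher by the same test, near the share of all genes called lower, and of 17 T cell receptor segments 6 were lower and 0 higher.

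**Figure D1:**
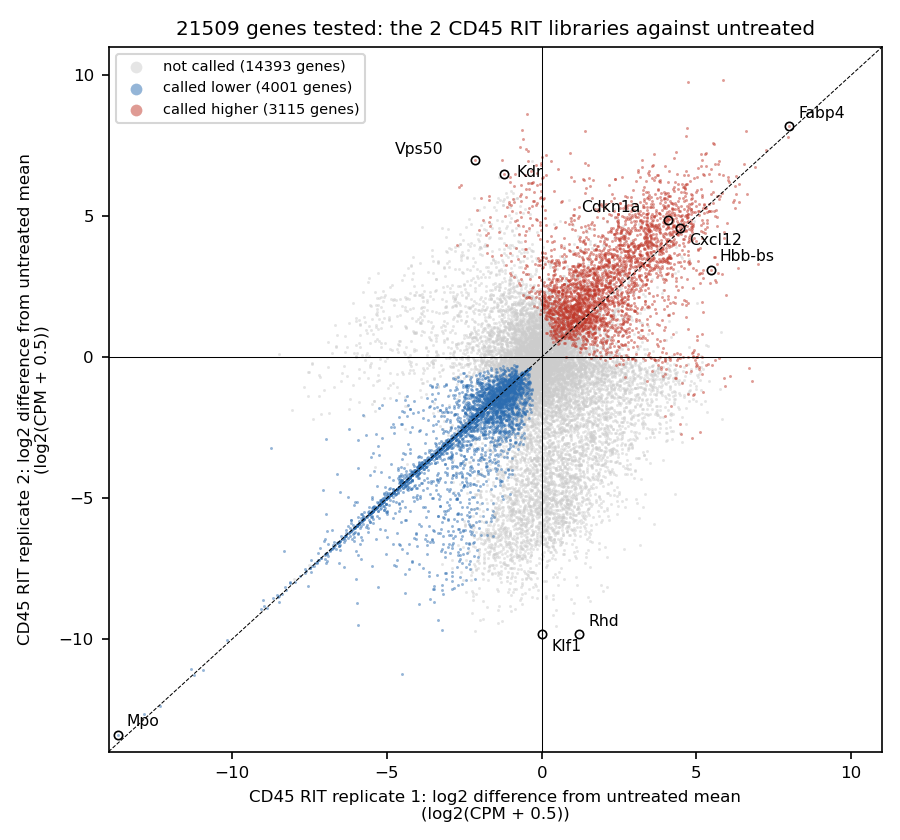
Each point is 1 of the 21509 genes tested, with the log2 difference between CD45 RIT replicate 1 (x) or replicate 2 (y) and the mean of the 4 untreated libraries, on log2(CPM + 0.5). Cxcl12, Fabp4 and Mpo lie near the dashed line of equal difference, while Rhd, Klf1, Vps50 and Kdr differ between the 2 libraries.

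CXCL12-abundant stromal cell transcripts were far higher in both CD45 RIT libraries. Of 18 markers of this cell, 17 were called higher and 0 lower, with a median log2 fold change of 4.26, against 14.5% called higher among all genes. The summed level of the list was 1865 to 4108 CPM in untreated libraries, 34955 CPM in CD45 RIT replicate 1 and 40407 CPM in replicate 2. The count stayed at 17 when either CD45 RIT library was left out. Cxcl12 (ENSMUSG00000061353.11, GRCm38 chromosome 6, 117168535 to 117181367, plus strand), the chemokine that retains stem cells in the marrow, was at 1031, 1639, 694 and 1154 CPM in untreated replicates 1 to 4. It stood at 24863 and 26856 CPM in CD45 RIT replicates 1 and 2, every treated value above every untreated one. The log2 fold change of Cxcl12 was 4.52 (SE 0.65, adjusted p = 0.000343).

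Lepr, the leptin receptor that marks these cells, rose from 72.7, 73.7, 65.6 and 108 CPM to 1655 and 1828 CPM, a rise of 4.44 (SE 0.54, adjusted p = 0.000107) in log2 terms. Vcam1, an adhesion molecule for blood cells, was at 61.3, 105, 53.1 and 94.5 CPM in untreated libraries and at 3520 and 2849 CPM in CD45 RIT (log2 fold change 5.34, SE 0.75, adjusted p = 0.000297). Gas6, a ligand of the TAM receptor kinases, was at 92 to 268 CPM in untreated libraries and at 6749 and 7034 CPM in CD45 RIT (log2 fold change 5.25, SE 0.79, adjusted p = 0.000471). In none of these 3 genes did the groups overlap, which partly follows from naming list members by the gap between the groups. Ebf1, a transcription factor shared with B cells, was the 1 marker that did not pass, at 56.3 to 164 CPM in untreated libraries and 328 and 376 CPM in CD45 RIT (adjusted p = 0.0631, or 0.0137 without TBI replicate 6). All 18 markers were also higher in CD45 RIT than in IgG RIT, where 37.7% of all genes were called and 20.2% called higher, and 17 were higher than in TBI, where 38.6% were called and 19.6% called higher. Without TBI replicate 6 the count against TBI was also 17, where 38% of all genes were called and 19.1% called higher.

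**Figure D2:**
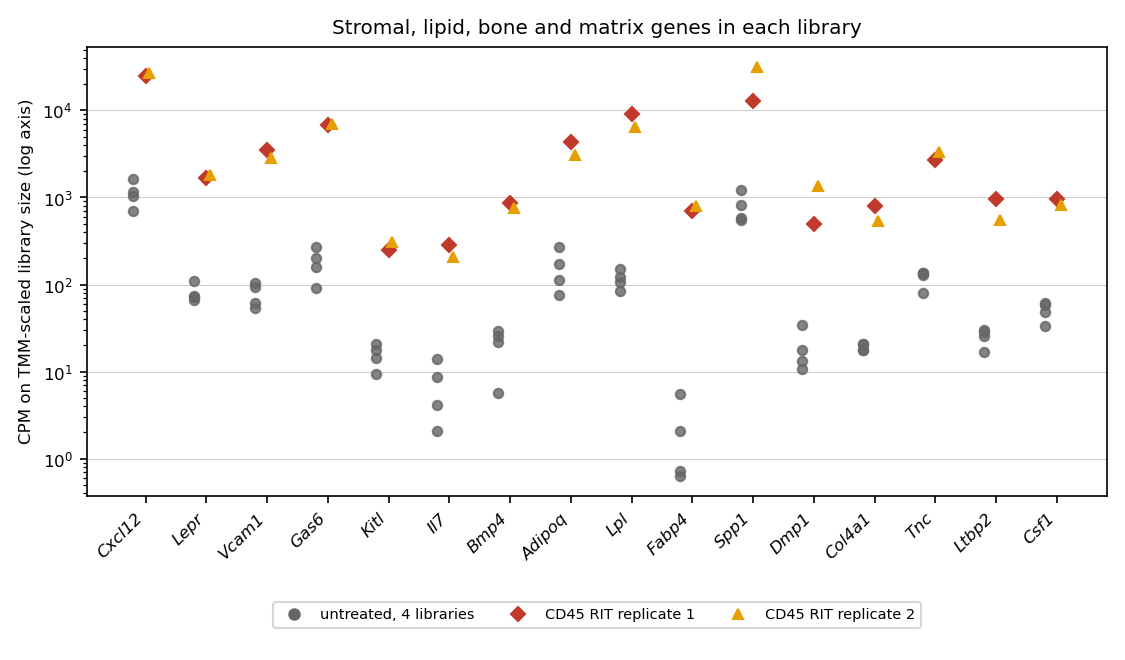
CPM on a log axis for 16 genes in each of the 4 untreated libraries (grey), CD45 RIT replicate 1 (red diamond) and replicate 2 (orange triangle). Both CD45 RIT libraries lie above all untreated libraries for every gene drawn, as they do at 17.5% of all genes tested. Most genes drawn were named by the gap between the groups or after their values were seen. The separation therefore partly follows from that choice.

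Secreted factors that blood-forming cells need were higher as well. Cxcl12, Kitl, Il7 and Angpt1 belong to both this list and the stromal list, so the counts are not independent. Of 19 niche factors tested, 11 (57.9%) were called higher and 0 lower, against 14.5% and 18.6% of all genes. The median log2 fold change of the list was 4.16. With no scaling factors 10 were higher and 1 lower, and lower calls also appeared when either CD45 RIT library was left out. Kitl, the stem cell factor, was at 20.6, 17.5, 9.42 and 14.5 CPM in untreated libraries and at 247 and 308 CPM in CD45 RIT (log2 fold change 4.16, SE 0.74, adjusted p = 0.0013). Il7, the cytokine of early lymphocytes, was at 13.8, 2.07, 4.14 and 8.56 CPM against 285 and 207 CPM (log2 fold change 5.10, SE 0.96, adjusted p = 0.00195). Bmp4, a morphogen of the TGF-beta family, was at 5.68 to 29.5 CPM against 864 and 755 CPM (log2 fold change 5.28, SE 0.91, adjusted p = 0.00108). The 2 treated libraries differed little in each of these genes and neither reached the untreated range. Igf1, an insulin-like growth factor, rose by 4.81 on the log2 scale (SE 0.33), and Vegfc, a growth factor of lymphatic and sinusoidal vessels, by 4.90 (SE 0.60). Angpt1, the ligand of the vessel receptor Tie2, rose by 2.37 (SE 0.61, adjusted p = 0.0113), a call lost with no scaling factors. Tgfb1 was at 54.5 to 81 CPM in untreated libraries and at 29.2 and 50.7 CPM in CD45 RIT, and did not pass (adjusted p = 0.0838, or 0.0417 without TBI replicate 6).

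Lipid transcripts rose in both CD45 RIT libraries. Of 21 adipocyte and lipid handling genes tested, 17 were called higher and 1, Fasn, lower, with a median log2 fold change of 2.98. Fabp4, a fatty acid carrier of adipocytes and of some capillaries, was at 2.07, 5.48, 0.634 and 0.728 CPM in untreated libraries. In CD45 RIT it was at 701 and 800 CPM, 8.39 higher on the log2 scale (SE 0.98, adjusted p = 7.99e-05). Lpl, the lipase that frees fatty acids from lipoproteins, went from 84.2, 121, 108 and 149 CPM to 8995 and 6433 CPM (log2 fold change 6.06, SE 0.50). Adipoq, the hormone adiponectin, went from 76 to 269 CPM to 4304 and 3053 CPM (log2 fold change 4.54, SE 0.65). Plin1, the coat protein of lipid droplets, had 0 to 0.134 CPM in untreated libraries, 44 CPM in CD45 RIT replicate 1 and 4.38 CPM in replicate 2 (adjusted p = 0.000862). Adipoq belongs to both the stromal and the lipid list, and marrow stromal cells express several lipid genes, so these counts are not independent of each other.

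Bone-forming cell transcripts were higher in both libraries and more so in replicate 2. Of 14 osteoblast and osteocyte markers tested, 11 were called higher and 0 lower (median log2 fold change 2.76). The summed level was 3339 to 8618 CPM in untreated libraries, 21356 CPM in CD45 RIT replicate 1 and 58654 CPM in replicate 2, and without replicate 2 the count of higher markers fell to 5. Spp1, osteopontin, was at 810, 1224, 546 and 587 CPM against 12924 and 31191 CPM (log2 fold change 4.80, SE 0.66, adjusted p = 0.000252). Dmp1, a mineral matrix protein of osteocytes, was at 10.6 to 33.9 CPM against 495 and 1366 CPM (log2 fold change 5.62, SE 1.02, adjusted p = 0.00154). Phex, an endopeptidase of phosphate balance, rose by 3.88 on the log2 scale (SE 0.88), and Ibsp, bone sialoprotein, by 3.14 (SE 0.55). Bglap, osteocalcin, did not pass, at 74.2 to 315 CPM in untreated libraries and 294 and 534 CPM in CD45 RIT (adjusted p = 0.244).

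Collagens and other matrix genes were mostly higher. Col1a1 and Col1a2 were also in the osteoblast and osteocyte list, and Col3a1 was also in the fibroblast list. Of 20 collagen genes tested, 18 were higher and 0 lower (median log2 fold change 4.02), and 10 were higher without CD45 RIT replicate 2. Of 29 matrix proteins and remodelling enzymes, 26 were higher and 0 lower (median 4.36). Col4a1, a chain of basement membrane collagen, was at 17.9, 20.8, 17.7 and 20.6 CPM against 807 and 531 CPM (log2 fold change 5.12, SE 0.48, adjusted p = 1.71e-05). Nid1, which links laminin to that collagen, was at 6.73 to 12 CPM against 212 and 242 CPM (log2 fold change 4.71, SE 0.50). Tnc, tenascin C, was at 129, 134, 79.1 and 135 CPM against 2714 and 3358 CPM (log2 fold change 4.67, SE 0.45). Col5a1, a fibril collagen chain, was at 45.9 to 76 CPM against 450 and 440 CPM (log2 fold change 2.88, SE 0.23). Fn1, fibronectin, differed between the treated libraries, at 130 CPM in replicate 1 and 847 CPM in replicate 2, and both lay above the 2.78 to 14.1 CPM of the untreated libraries.

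Of the shorter lists of mural and fibroblast markers, 40% and 62.5% were called higher, against 14.5% of all genes. Of 10 pericyte and smooth muscle markers, 4 were higher and 0 lower, among them Cspg4, the NG2 proteoglycan, at 0.865 to 2.6 CPM against 20.6 and 119 CPM (adjusted p = 0.000973). Without CD45 RIT replicate 1, 2 of the 10 were higher and 1 lower, and without untreated replicate 3, 2 were higher. Of 8 fibroblast markers tested, 5 were higher and 1, Pi16, lower, and without CD45 RIT replicate 2 only 1 was called higher. The summed fibroblast level was 309.1 to 607.3 CPM in untreated libraries, 820.6 CPM in CD45 RIT replicate 1 and 5491 CPM in replicate 2. Gsn, the actin-severing protein gelsolin, was at 123 to 163 CPM against 481 and 2139 CPM (log2 fold change 3.25, SE 0.62).

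Genes of TGF-beta and BMP signalling and of complement were mostly higher. Tgfb1 and Bmp4 were also listed as niche factors. Of 29 TGF-beta and BMP genes tested, 21 were higher and 0 lower, with a median log2 fold change of 3.91. Ltbp2, a microfibril-associated protein, was at 16.9 to 30.4 CPM against 967 and 555 CPM (log2 fold change 4.91, SE 0.74). Bmpr1a, a BMP receptor, was at 0.131, 1.14, 3.67 and 5.48 CPM against 88 and 84 CPM (log2 fold change 5.05, SE 1.01). Of 17 complement genes, 11 were higher and 1 lower. C4b was at 39.5 to 66.4 CPM against 570 and 831 CPM, and the macrophage-made C1qb was at 0 to 1.11 CPM against 18.5 and 56.4 CPM, with adjusted p = 0.000257 and 0.00128. C3ar1, a receptor for a complement fragment, was the member that fell, from 2.53 to 6.26 CPM to 0 counts in both libraries, at least 25.0-fold lower against a floor of 3 counts per library.

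Among 18 genes tested of mostly secreted factors that accompany inflammation and senescence, 9 were higher and 2, Il6 and Tnf, were lower. More were lower without CD45 RIT replicate 1. The list also holds the cell cycle inhibitors Cdkn2a and Cdkn2b. Csf1, the macrophage growth factor, was at 60.7, 57.5, 33.3 and 48.2 CPM against 961 and 824 CPM (log2 fold change 4.16, SE 0.45, adjusted p = 4.8e-05). Mmp13, a collagenase, was at 74.2 to 116 CPM against 1235 and 3131 CPM (log2 fold change 4.61, SE 0.55). Timp1, an inhibitor of such enzymes, was at 7.24 to 15.0 CPM against 116 and 265 CPM. Cdkn2b, the cell cycle inhibitor p15, was at 0 to 0.416 CPM in untreated libraries, 7.44 CPM in CD45 RIT replicate 1 and 72.7 CPM in replicate 2 (adjusted p = 0.00208). Il6 went the other way, from 8.88, 5.66, 5.11 and 10.3 CPM to 0 counts in both libraries, at least 45.7-fold lower (adjusted p = 0.00097). A difference in Il6 from IgG RIT did not pass (adjusted p = 0.423), where it was at 0 to 0.0526 CPM.

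Vessel transcripts showed no common direction. Of 14 endothelial markers tested, 4 (Pecam1, Tie1, Erg and Egfl7) were lower, 1 (Kdr) was higher and 9 did not pass, against background shares of 18.6% and 14.5%. Pecam1, an adhesion molecule of endothelium and of several blood cells, was at 37, 26.8, 65.3 and 48.2 CPM in untreated libraries and fell to 0.366 and 0.192 CPM, or 6 and 4 counts (log2 fold change -7.30, SE 1.03, adjusted p = 0.000304). Erg, a transcription factor of endothelium and stem cells, was at 7.55, 7.75, 5.54 and 7.59 CPM against 0.366 and 0.0481 CPM (log2 fold change -5.11, SE 0.93). Tie1, an endothelial receptor kinase, went from 6.82 to 8.61 CPM to 0 counts in both libraries, at least 48.1-fold lower (adjusted p = 0.0205), a call lost without CD45 RIT replicate 2 (adjusted p = 0.0646).

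Kdr, the main VEGF receptor, rested on 1 library, with 0.76, 0, 0 and 2.43 CPM in untreated replicates 1 to 4, 1 count in CD45 RIT replicate 1 and 2390 counts (115 CPM) in replicate 2. Its log2 fold change was 6.17 (adjusted p = 0.0431), and it turned to -3.63 without CD45 RIT replicate 2 (adjusted p = 0.405). The Kdr call was also lost without untreated replicate 1, 2 or 3, at adjusted p = 0.0847, 0.0801 and 0.0788, and without TBI replicate 6, at 0.0526. Plvap, a protein of fenestrated and sinusoidal endothelium, was at 8.7 to 12.7 CPM in untreated libraries, 13.6 CPM in CD45 RIT replicate 1 and 123 CPM in replicate 2. Its call (adjusted p = 0.0247) was lost without CD45 RIT replicate 2, where the log2 fold change fell from 2.67 to 0.30 (adjusted p = 0.791), and without untreated replicate 1 or 4 (adjusted p = 0.0524 and 0.0575). Of 8 sinusoidal markers tested, Cd38 was lower, with 0 counts in untreated replicate 2 and in both CD45 RIT libraries. The Cd38 call was lost when either CD45 RIT library was left out. Flt4, Stab1, Plvap and Fabp5 were the higher members. Without CD45 RIT replicate 2 only 1 was higher, and without untreated replicate 1 only 2 were. The calls of Kdr, Plvap and Stab1 were also lost with no scaling factors and with only the 6 libraries of the 2 groups. None of 6 arterial markers tested was called by edgeR, while DESeq2 called 1 higher and 2 lower.

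**Figure D3:**
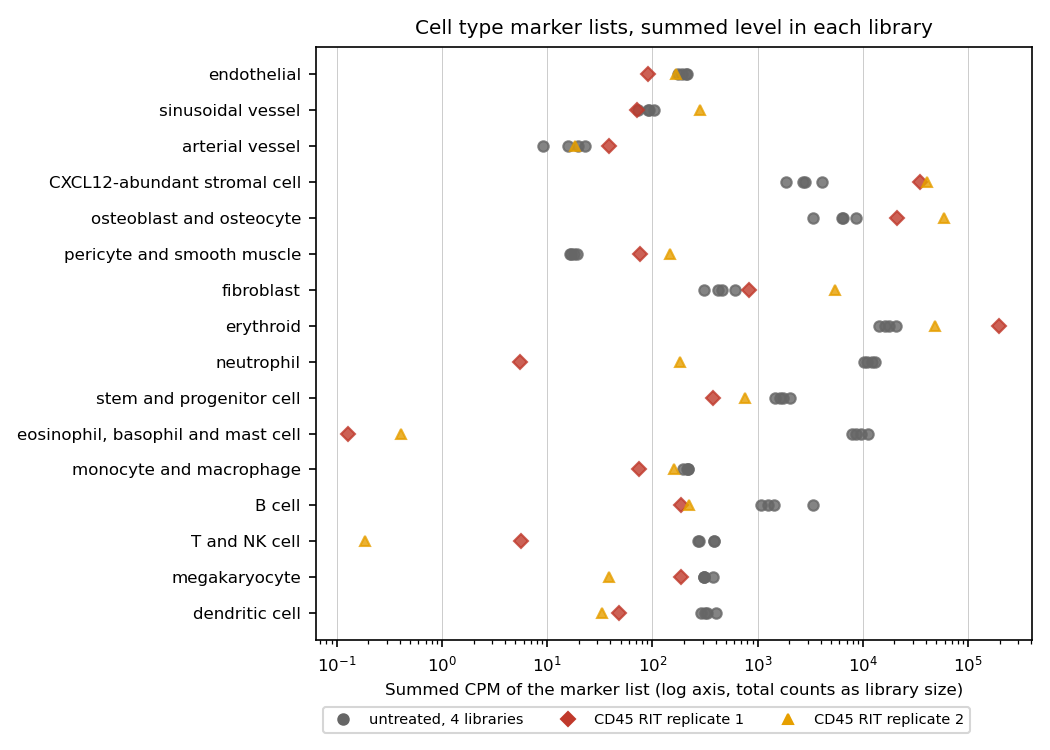
Summed CPM of 16 cell type marker lists (log axis, total counts as library size) in the 4 untreated libraries (grey), CD45 RIT replicate 1 (red diamond) and replicate 2 (orange triangle). Stromal and bone lists lie above the untreated range in both CD45 RIT libraries, granulocyte, lymphoid and progenitor lists below it, and the endothelial list under it.

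Granulocyte transcripts, abundant in the untreated sorted cells, were nearly gone. Of 12 eosinophil, basophil and mast cell markers, 11 were called lower and 0 higher, and all 12 had 3 counts or fewer in each CD45 RIT library. The summed level of that list was 7956 to 11200 CPM in untreated libraries, 0.129 CPM in CD45 RIT replicate 1 and 0.410 CPM in replicate 2. Of 15 neutrophil markers, 9 were lower and 1, Mmp9, higher, with sums of 10301 to 12958 CPM against 5.49 and 183 CPM. Mpo (ENSMUSG00000009350.13, GRCm38 chromosome 11, 87793581 to 87804413, plus strand), the myeloperoxidase of neutrophil granules, was at 8271, 7658, 7081 and 7061 CPM in untreated libraries. It had 1 count in CD45 RIT replicate 1 and 4 counts in replicate 2 (log2 fold change -15.74, SE 1.47, adjusted p = 1.78e-05). Elane, neutrophil elastase, was at 968 to 1224 CPM against 1 and 0 counts, a ratio of 41171 with a 95% counting interval of 7389 to 1626170. Mcpt8, a basophil protease, was at 998 to 1596 CPM against 1 count in each library, a ratio of 25249 with an interval of 6990 to 208487. Cpa3, the mast cell carboxypeptidase, was at 218 to 357 CPM against 0 and 1 counts. These intervals cover counting error only, since the reads carry no molecular identifiers.

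More stem and progenitor markers were called lower than higher. Of 16, 7 (43.8%) were lower, 2 (12.5%) higher and 7 not called, against 18.6% lower and 14.5% higher among all genes. At 5 of the 16 the 2 CD45 RIT libraries lay on opposite sides of the untreated range. Such splits were found at 10.7% (replicate 1 above) and 5.93% (replicate 2 above) of all genes tested. Cd34, a sialomucin of progenitors and endothelium, was at 296, 229, 200 and 224 CPM against 0 counts in both libraries, at least 1451-fold lower (adjusted p = 6.21e-06). Gata2, a transcription factor of stem and mast cells, was at 129 to 242 CPM against 0 counts, at least 1119-fold lower. Runx1 and Hoxa9, transcription factors of stem cells, were the higher members, at 269 and 76.7 CPM for Runx1 against 56.3 to 71.7 CPM and at 46.9 and 95.3 CPM for Hoxa9 against 16.8 to 26.9 CPM. The Runx1 call was lost without CD45 RIT replicate 1 (adjusted p = 0.46), the Hoxa9 call without replicate 2 (adjusted p = 0.0798), and both with no scaling factors. Kit, the stem cell factor receptor, lay below the 89.2 to 180 CPM of untreated libraries in both treated libraries, unequally, with 0 counts in replicate 1 and 36.2 CPM in replicate 2, and did not pass (adjusted p = 0.122).

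Ly6c2, a marker of inflammatory monocytes, was at 60.5, 83.7, 64.9 and 70.8 CPM against 0 counts, at least 428-fold lower, and the chemokine receptor Ccr2 was at least 135-fold lower. Csf1r, the receptor of Csf1, fell from 34.5 to 50.7 CPM to 2.62 and 2.89 CPM (log2 fold change -4.04, SE 0.59). Of 15 monocyte and macrophage markers tested, 5 were lower and 4 higher, the complement genes C1qa, C1qb and C1qc and the lysosomal Cd68, and 2 were higher without CD45 RIT replicate 2. Of 11 B cell markers, 6 were lower and 0 higher. Pax5, which fixes B cell identity, was at 4.72, 5.51, 24.3 and 7.8 CPM against 0 counts, at least 64.6-fold lower, and Rag2, of the recombinase, was at least 108-fold lower. Of 9 T and NK cell markers tested, 2, Cd3g and Nkg7, were lower, 0 were higher and 7 did not pass, and of 9 megakaryocyte markers 2, Gp1ba and Treml1, were lower and 0 higher. Both shares, 22.2%, were near the 18.6% of all genes called lower. The T and NK count was 1 without CD45 RIT replicate 2 and 5 without untreated replicate 1, and the megakaryocyte count was 4 without CD45 RIT replicate 1. Of 7 dendritic cell markers tested, 3, Siglech, Irf8 and Itgax, were lower and 0 higher, and 1 was lower when either CD45 RIT library or untreated replicate 2, 3 or 4 was left out. Ptprc, which encodes CD45 itself and was gated against in the sort, was at 47.2 to 85.7 CPM in untreated libraries, 1 count in CD45 RIT replicate 1 and 31.9 CPM in replicate 2 (adjusted p = 0.216).

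Red cell transcripts divided the 2 treated libraries. The summed erythroid list was 14329 to 20651 CPM in untreated libraries, 198685 CPM in CD45 RIT replicate 1 and 48149 CPM in replicate 2. Of 17 markers tested, 6 were higher, 1 lower and 10 not called. At 8 markers, against 10.7% (replicate 1 above) and 5.93% (replicate 2 above) of all genes, the libraries split around the untreated range. Without replicate 1, 5 were higher and 10 lower, and without replicate 2, 12 were higher and 1 lower. Hbb-bs, a beta globin, was at 2773, 2026, 3784 and 2242 CPM against 118913 and 23138 CPM (log2 fold change 4.71, SE 0.92), and Alas2, the first enzyme of haem synthesis in red cells, was at 124 to 311 CPM against 11306 and 2235 CPM (log2 fold change 4.92, SE 0.90). Both were above the untreated range in both libraries. Klf1, the erythroid master regulator, was at 435 to 474 CPM in untreated libraries, 462 CPM in replicate 1 and 0 counts in replicate 2. Car1, a carbonic anhydrase, was the member that fell, from 1153 to 1821 CPM to 68.8 and 0.144 CPM (adjusted p = 0.0113), a call lost with only the 6 libraries of the 2 groups. Near-identical globin copies can share reads, so values of single globin genes are uncertain. Differences of Hbb-bs and Alas2 from IgG RIT did not pass (adjusted p = 0.917 and 0.839).

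Many targets of p53, the factor that responds to DNA damage by arresting or killing cells, were higher. Of 32 targets, 17 were called higher, 4 lower and 11 not at all, with a median log2 fold change of 1.58, and 19 and 15 were higher without CD45 RIT replicate 1 and 2. Cdkn1a (ENSMUSG00000023067.14, GRCm38 chromosome 17, 29090976 to 29100727, plus strand), the inhibitor p21 that halts the cell cycle, was at 35.1, 26.7, 39.6 and 26.1 CPM against 551 and 935 CPM (log2 fold change 4.54, SE 0.47, adjusted p = 3.44e-05). Phlda3, a repressor of Akt signalling, was at 9.3, 19.8, 7.68 and 7.38 CPM against 303 and 388 CPM (log2 fold change 4.97, SE 0.41). Ak1, an adenylate kinase, was at 1.68 to 9.58 CPM against 227 and 521 CPM (log2 fold change 6.09, SE 0.68). The treated libraries exceeded every untreated library in all 3 genes, as they did at 17.5% of all genes tested.

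Ccng1, cyclin G1, was at 40.6, 43.9, 46.5 and 58.8 CPM against 229 and 253 CPM (log2 fold change 2.34, SE 0.22), and Mdm2, the ligase that degrades p53, was at 46, 37.2, 52.2 and 57.2 CPM against 142 and 179 CPM (log2 fold change 1.74, SE 0.21). Fas, a death receptor, rose by 4.44 on the log2 scale (SE 0.94), and Dcxr, a carbonyl reductase, by 3.41 (SE 0.55). The 4 targets that fell were Perp, Plk3, Pmaip1 and Pidd1. Perp, a membrane protein of cell death and junctions, went from 2.5 to 8.14 CPM to 0 counts in both libraries, at least 34.5-fold lower, and Plk3, a stress kinase, was at least 32.4-fold lower. Trp53, which encodes p53, was at 210, 275, 230 and 244 CPM against 120 and 162 CPM. Its call (log2 fold change -0.76, SE 0.27, adjusted p = 0.0459) was lost without any 1 untreated replicate (adjusted p = 0.0514, 0.0906, 0.0681 and 0.0758 without replicates 1 to 4) and without CD45 RIT replicate 1 (0.169), and also with median-of-ratios factors, only the 6 libraries or DESeq2. Cdkn1a was higher in CD45 RIT than in IgG RIT by 4.24 (SE 0.52) and than in TBI by 3.74 (SE 0.42) on the log2 scale, with adjusted p = 8.6e-05 and 3.27e-05. Without TBI replicate 6 the difference from TBI was 4.19 (SE 0.30).

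Cell death genes were mostly not called. Bax, Bbc3 and Pmaip1 were also in the list of p53 targets. Of 23 BCL2 family and caspase genes tested, 6 (26.1%) were higher, 2 (8.70%) lower and 15 not called, with a median log2 fold change of 0.033, against 14.5% and 18.6% of all genes. The count of lower genes was 4 without CD45 RIT replicate 1 and 7 without replicate 2. The count of higher genes was 4 without CD45 RIT replicate 2, 3 without untreated replicate 3 or 4, and 3 with no scaling factors. Bax, which opens the mitochondrial membrane, was at 70.7 to 92.9 CPM against 153 and 342 CPM (log2 fold change 1.66, SE 0.26), and Bbc3, its activator Puma, was at 4.97 to 14.9 CPM against 47 and 53 CPM (log2 fold change 2.38, SE 0.57). Pmaip1, the activator Noxa, fell from 0.299 to 2.99 CPM to 1 count in each library, a ratio of 31.6 with a 95% counting interval of 8.75 to 261. A difference in Bbc3 between CD45 RIT and IgG RIT did not pass (adjusted p = 0.681).

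Many interferon-stimulated genes were called higher, 62.9% of those tested against 14.5% of all genes. Interferons bind cell surface receptors and switch on antiviral genes through STAT and IRF factors, which recognise the interferon-stimulated response element in promoters. Of 35 such genes tested, 22 were called higher, 1 lower and 12 not at all, with a median log2 fold change of 1.99, and 19 and 21 were higher without CD45 RIT replicate 1 and 2. With no scaling factors 14 were higher, and the count of lower genes was 6 without CD45 RIT replicate 1 and 3 without replicate 2. The promoters of Ifit3, Isg15 and Rsad2, 3 called members of the list with wide gaps between the groups, are taken from the RefSeq table (GRCm38.p6) and shown because these genes moved together. Each runs from 250 bases before to 50 bases after the start, with matches to the core of that element, GAAA, any 2 bases and GAAA, on either strand in capitals; overlapping matches run together. Ifit3 lies at chr19:34583279-34583578 on the plus strand, and Isg15 at chr4:156200769-156201068 and Rsad2 at chr12:26456403-26456702 on the minus strand.
Ifit3: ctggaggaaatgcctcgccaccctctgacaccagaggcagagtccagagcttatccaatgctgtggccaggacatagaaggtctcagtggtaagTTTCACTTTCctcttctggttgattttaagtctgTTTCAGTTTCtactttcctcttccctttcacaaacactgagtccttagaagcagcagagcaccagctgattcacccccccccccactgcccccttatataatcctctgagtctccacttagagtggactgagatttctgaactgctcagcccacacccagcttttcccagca
Isg15: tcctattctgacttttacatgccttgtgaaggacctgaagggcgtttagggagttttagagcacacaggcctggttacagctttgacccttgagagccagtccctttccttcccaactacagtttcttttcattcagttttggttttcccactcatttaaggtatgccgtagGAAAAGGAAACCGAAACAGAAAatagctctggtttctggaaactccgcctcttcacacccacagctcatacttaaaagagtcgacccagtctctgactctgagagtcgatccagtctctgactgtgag
Rsad2: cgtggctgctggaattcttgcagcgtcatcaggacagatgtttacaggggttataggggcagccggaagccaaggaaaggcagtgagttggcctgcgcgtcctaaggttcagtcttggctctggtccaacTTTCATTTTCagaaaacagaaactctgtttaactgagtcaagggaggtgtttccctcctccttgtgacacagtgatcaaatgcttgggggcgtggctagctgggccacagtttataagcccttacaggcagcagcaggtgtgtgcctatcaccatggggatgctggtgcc
Of 24 list members with a promoter in the table, 13 (54.2%) held the motif, against 1079 of 27025 genes (3.99%), and of 16 called members with a promoter 12 held it. A match describes letters in this window and does not show that a factor binds there.

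Isg15, a ubiquitin-like modifier, was at 12.2, 9.76, 21.5 and 17.2 CPM in untreated libraries and at 520 and 219 CPM in CD45 RIT (log2 fold change 4.61, SE 0.64, adjusted p = 0.000262). Rsad2, the antiviral enzyme viperin, was at 51, 40, 107 and 83.4 CPM against 1932 and 749 CPM (log2 fold change 4.25, SE 0.68). Ifit1, which binds foreign RNA caps, was at 2.24 to 12.2 CPM against 240 and 54.5 CPM (log2 fold change 4.64, SE 0.82), and its relative Ifit3 was at 0 to 4.31 CPM against 87.4 and 111 CPM (log2 fold change 5.55, SE 1.40). Irf7, the regulator that amplifies interferon production, was at 24 to 39.1 CPM against 187 and 128 CPM (log2 fold change 2.44, SE 0.33). The groups were apart in each gene, and replicate 1 exceeded replicate 2 in Isg15, Rsad2, Ifit1 and Irf7. Oas2, one of the enzymes that sense double-stranded RNA, was the member that fell, from 0.0693 to 2.33 CPM to 0 counts. The fall was at least 8.39-fold from the untreated mean. The lowest untreated value of Oas2 lay under the floors of CD45 RIT replicates 1 and 2, 0.183 and 0.144 CPM. The calls of Ifit3 and Oas2 were lost with only the 6 libraries of the 2 groups. Members of the Ifit, Oas and H2 families are close relatives whose reads may be shared.

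Set against the other radioimmunotherapy, the interferon genes divided. Isg15, Rsad2 and Irf7 did not pass a difference between CD45 RIT and IgG RIT, with log2 differences of 0.11 (SE 0.66), -0.17 (SE 0.72) and -0.14 (SE 0.36). IgG RIT libraries held 318 to 363 CPM of Isg15 and 1206 to 2063 CPM of Rsad2. Ifit1 exceeded its IgG RIT level by 2.62 in log2 terms (SE 0.86, adjusted p = 0.0304) and Oasl2, an OAS-like protein, by 2.87 (SE 0.57, adjusted p = 0.00218). Iigp1, an interferon-induced GTPase, was higher by 8.09 (SE 0.67), with 1.45 to 3.19 CPM in IgG RIT against 691 and 429 CPM in CD45 RIT. Of the 35 genes, 13 were higher and 3 lower than in IgG RIT, and 21 were higher and 2 lower than in TBI, or 23 and 1 without TBI replicate 6. Among all genes, 20.2% were higher and 17.5% lower than in IgG RIT. Against TBI these shares were 19.6% and 19%, or 19.1% and 19% without TBI replicate 6.

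**Figure D4:**
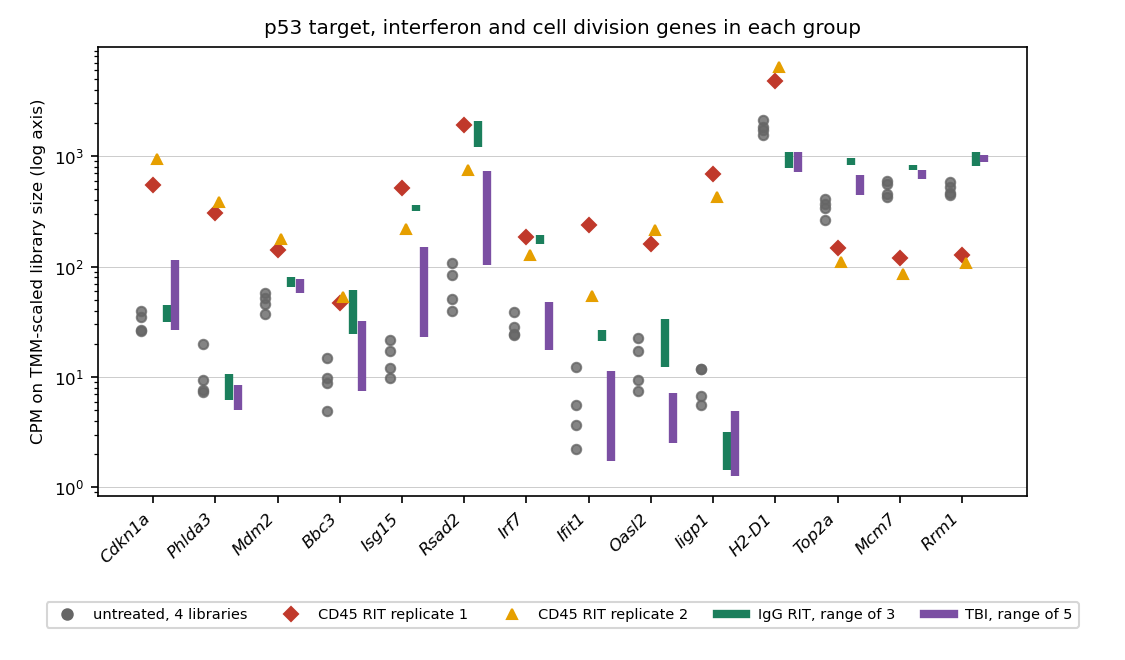
CPM on a log axis for 14 genes in the 4 untreated libraries (grey), CD45 RIT replicate 1 (red diamond) and 2 (orange triangle), with the range of the 3 IgG RIT libraries (green bar) and of the 5 TBI libraries (purple bar). Cdkn1a and Iigp1 in CD45 RIT lie above all other groups, Isg15, Rsad2 and Irf7 lie around the IgG RIT range, and Top2a, Mcm7 and Rrm1 lie below every group.

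Most antigen presentation genes were not called. The calls were higher in class I and lower in class II, and the difference between the classes was not tested. Of 19 MHC class I genes, 7 (36.8%) were higher, 0 lower and 12 not called (median log2 fold change 0.65). Of 9 MHC class II genes, 3 (33.3%) were lower, 0 higher and 6 not called (median -3.32). Among all genes, 14.5% were called higher and 18.6% lower. With no scaling factors 3 class I genes were higher and 1 lower and 5 class II genes were lower, DESeq2 called 12 class I genes higher, and without CD45 RIT replicate 1 the fit called 6 class II genes lower. H2-D1, a class I heavy chain, was at 1820, 2137, 1717 and 1537 CPM against 4798 and 6355 CPM (log2 fold change 1.63, SE 0.20), and Nlrc5, the class I activator, was at 9.32 to 17 CPM against 94.8 and 58.8 CPM (log2 fold change 2.48, SE 0.56). B2m, the light chain, rose by 1.18 (SE 0.23), a call lost with no scaling factors. H2-DMa, which loads peptides on class II, fell from 74.1 to 112 CPM to 1.65 and 5.15 CPM (log2 fold change -4.75, SE 0.70), and H2-Oa was at 0 counts in both libraries, at least 83.1-fold lower. Of 15 nucleic acid sensing genes tested, 4 were higher and 0 lower, the DNA sensor Ifi204 and the receptor chains Ifnar2, Ifngr1 and Ifngr2 (median log2 fold change of the list -0.15). Without CD45 RIT replicate 1, 6 of the 15 were lower, and with no scaling factors 2 were higher.

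DNA replication genes were lower or not called, and their summed level was lower in replicate 2 than in replicate 1. Dividing cells switch on replication genes before S phase and mitotic genes after it, the latter through promoters that hold the CCAAT box and the cell cycle homology region. Of 25 DNA replication genes, 12 were called lower and 0 higher (median log2 fold change -1.85), 24 lay below every untreated library in both CD45 RIT libraries, and 24 and 19 were lower without CD45 RIT replicate 1 and 2. Among all genes tested, 18.6% were called lower, and 29.8% lay below every untreated library in both CD45 RIT libraries. The summed level of the replication list was 7124 to 8944 CPM in untreated libraries, 2382 CPM in CD45 RIT replicate 1 and 593 CPM in replicate 2. Rrm1, of the enzyme that makes deoxynucleotides, was at 463, 446, 525 and 580 CPM against 128 and 108 CPM (log2 fold change -2.09, SE 0.19, adjusted p = 1.24e-05). Mcm7, of the replicative helicase, was at 452, 423, 564 and 597 CPM against 120 and 84.8 CPM (log2 fold change -2.32, SE 0.21). Gins1, a partner of that helicase, was at 42 to 56 CPM against 0.671 and 0.0481 CPM (log2 fold change -7.09, SE 0.72).

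Mitosis genes were called lower near the background share. Of 23, 5 were lower, 0 higher and 18 not called (median log2 fold change -0.93), at 8 the 2 CD45 RIT libraries lay on opposite sides of the untreated range, 17 were lower without replicate 1, and 3 and 10 were lower with median-of-ratios and with no scaling factors. Splits around the untreated range were found at 10.7% (replicate 1 above) and 5.93% (replicate 2 above) of all genes tested. The promoters of Top2a, Cdc20 and Aurka, 3 called members, are taken from the RefSeq table (GRCm38.p6) and shown with TTTGAA, the cell cycle homology region, and CCAAT in capitals on either strand. All 3 are on the minus strand, Top2a at chr11:99024140-99024439, Cdc20 at chr4:118437294-118437593 and Aurka at chr2:172370521-172370820.
Top2a: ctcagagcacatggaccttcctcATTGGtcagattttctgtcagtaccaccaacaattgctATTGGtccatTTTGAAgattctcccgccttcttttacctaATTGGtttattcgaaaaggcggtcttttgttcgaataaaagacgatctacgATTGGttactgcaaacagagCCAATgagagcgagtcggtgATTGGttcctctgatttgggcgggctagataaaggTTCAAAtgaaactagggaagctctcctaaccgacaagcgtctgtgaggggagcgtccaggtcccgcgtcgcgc
Cdc20: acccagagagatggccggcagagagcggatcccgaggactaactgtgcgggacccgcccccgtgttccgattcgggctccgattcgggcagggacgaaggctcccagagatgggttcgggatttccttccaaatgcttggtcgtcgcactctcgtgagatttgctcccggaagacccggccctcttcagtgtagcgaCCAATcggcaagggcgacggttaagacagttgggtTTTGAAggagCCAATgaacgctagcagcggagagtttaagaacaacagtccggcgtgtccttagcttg
Aurka: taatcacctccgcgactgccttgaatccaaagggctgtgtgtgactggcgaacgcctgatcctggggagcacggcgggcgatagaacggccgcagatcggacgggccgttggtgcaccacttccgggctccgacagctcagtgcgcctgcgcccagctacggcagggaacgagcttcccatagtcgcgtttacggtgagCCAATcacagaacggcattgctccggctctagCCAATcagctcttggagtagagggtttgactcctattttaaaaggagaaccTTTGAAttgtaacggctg
Of 19 members with a promoter, 14 (73.7%) held TTTGAA against 20.2% of all 27025 genes, and 17 (89.5%) held CCAAT against 41.1%. Top2a, the topoisomerase that untangles chromosomes, was at 338, 266, 406 and 366 CPM against 149 and 110 CPM (log2 fold change -1.41, SE 0.24, adjusted p = 0.000852). Kif20a, a motor of the dividing cell's midzone, was at 96 to 192 CPM against 50.2 and 16.5 CPM (log2 fold change -2.15, SE 0.40). Cdc20, an activator of the anaphase ligase, changed by -1.19 in log2 terms (SE 0.30, adjusted p = 0.0101), a call lost with median-of-ratios factors and with only the 6 libraries. Aurka, a kinase of the spindle poles, was at 174, 114, 164 and 153 CPM against 96.5 and 40.3 CPM (log2 fold change -1.15, SE 0.34, adjusted p = 0.0229). The Aurka call was lost without CD45 RIT replicate 2 (adjusted p = 0.179), with median-of-ratios factors (0.0559) and with only the 6 libraries (0.0946). Top2a was lower in CD45 RIT than in IgG RIT by -2.76 (SE 0.26) and than in TBI by -2.14 (SE 0.24), or by -2.08 (SE 0.23) without TBI replicate 6, and the IgG RIT libraries lay above the untreated ones at 828 to 959 CPM.

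Genes of DNA break repair were lower or not called. Of 30, 11 (36.7%) were lower and 0 higher (median log2 fold change -1.59), against 18.6% of all genes called lower. The count of lower genes depended on which CD45 RIT library was left out. Of the 30, 21 had 3 counts or fewer in replicate 2, and 4 did in replicate 1. Among the 6546 genes at 10 CPM or more in all 12 other libraries, 15.4% did in replicate 2 and 1.77% in replicate 1. Mre11a, of the complex that senses broken ends, was at 28, 26.7, 48.8 and 56.9 CPM against 0 counts in both libraries, at least 245-fold lower, and Xrcc2, a protein of homologous recombination, was at least 114-fold lower. Polq, a polymerase of error-prone end joining, was at 7.2 to 18 CPM against 1 count in each library, a ratio of 215 with an interval of 59.4 to 1773.

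Antioxidant genes and mitochondrial transcripts were mostly not called. Of 24 antioxidant genes, 5 (20.8%) were higher and 2 (8.33%), Prdx6 and Txn1, lower, against 14.5% and 18.6% of all genes. With no scaling factors 4 were lower, and the count of lower genes also rose without CD45 RIT replicate 1. At 10 of the 24 the CD45 RIT libraries lay on opposite sides of the untreated range. Among all genes, such splits were found at 10.7% (replicate 1 above) and 5.93% (replicate 2 above). Sod3, the extracellular dismutase, was at 3.8 to 5.91 CPM against 139 and 267 CPM (log2 fold change 5.28, SE 0.46), Gpx3, the secreted glutathione peroxidase, was at 248 to 463 CPM against 4000 and 5333 CPM (log2 fold change 3.82, SE 0.67), and Cat, catalase, was at 106 to 164 CPM against 1057 and 457 CPM (log2 fold change 2.54, SE 0.39). Of 13 mitochondrially encoded genes, 4 (mt-Nd2, mt-Nd4l, mt-Nd5 and mt-Nd6, of respiratory complex I) were higher and 0 lower, and 0 were higher without CD45 RIT replicate 2 or with no scaling factors. Without any 1 untreated library 1 or 2 of them were higher.

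The widest gaps downward between the groups were in granulocyte and other blood cell genes, and those upward included lipid and Wnt genes. Among called genes without overlap whose log2 CPM averaged 3 or more, the 10 widest gaps upward belonged to Fabp4, Sfrp1, Lpl, Slc5a3, Fzd1, Amotl2, Iigp1, Cd83, Ghr and Ehd3. Sfrp1, a secreted Wnt antagonist, was at 0.314, 3.71, 2.34 and 4.51 CPM against 243 and 216 CPM, and Fzd1, a Wnt receptor, was at 1.87 to 11.5 CPM against 438 and 530 CPM, with log2 fold changes of 6.40 (SE 0.83) and 6.27 (SE 1.28). Ghr, the growth hormone receptor, was at 16.5, 25, 24.3 and 17.8 CPM against 832 and 831 CPM (log2 fold change 5.32, SE 0.52), with nearly equal treated values. Slc5a3, an inositol transporter, was at 0.801 to 4.78 CPM against 338 and 185 CPM, and Amotl2, an angiomotin of the Hippo pathway, was at 5.14 to 9.41 CPM against 355 and 344 CPM. Among the 10 widest gaps downward were those of Mpo, Prss34, Mcpt8, Elane, Ctsg, Prg2, Cd34, Parvg and Cpa3. Parvg, a parvin of blood cells, was at 170, 175, 153 and 180 CPM in untreated libraries and at 0 counts in both CD45 RIT libraries, at least 1035-fold lower.

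Other genes moved apart in the 2 treated libraries. Where log2 CPM averaged 3 or more, replicate 1 was above and replicate 2 below all untreated libraries at 859 genes, and the reverse held at 783. The widest splits of the first kind were Rhd, Slc43a1, Nt5c3, Tspan33 and Cldn13, several of them red cell genes. Rhd, a blood group protein, was at 512, 461, 512 and 501 CPM in untreated libraries, 1145 CPM in replicate 1 and 1 count in replicate 2. The other 4 were at 617 to 819 CPM in replicate 1 and at 0 to 4 counts in replicate 2. The widest splits of the other kind were Vps50, Zfp143, Dhx35, Vps8 and Prkch. Vps50, a vesicle tethering protein, was at 20.4, 15.4, 26.3 and 29.4 CPM in untreated libraries, 4.76 CPM in replicate 1 and 2989 CPM in replicate 2. It was called higher (adjusted p = 0.00342), a call lost with only the 6 libraries, and without replicate 2 its log2 fold change turned to -2.30. Zfp143, Dhx35, Vps8 and Prkch had 0 counts in replicate 1 and 135 to 167 CPM in replicate 2.

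**Figure D5:**
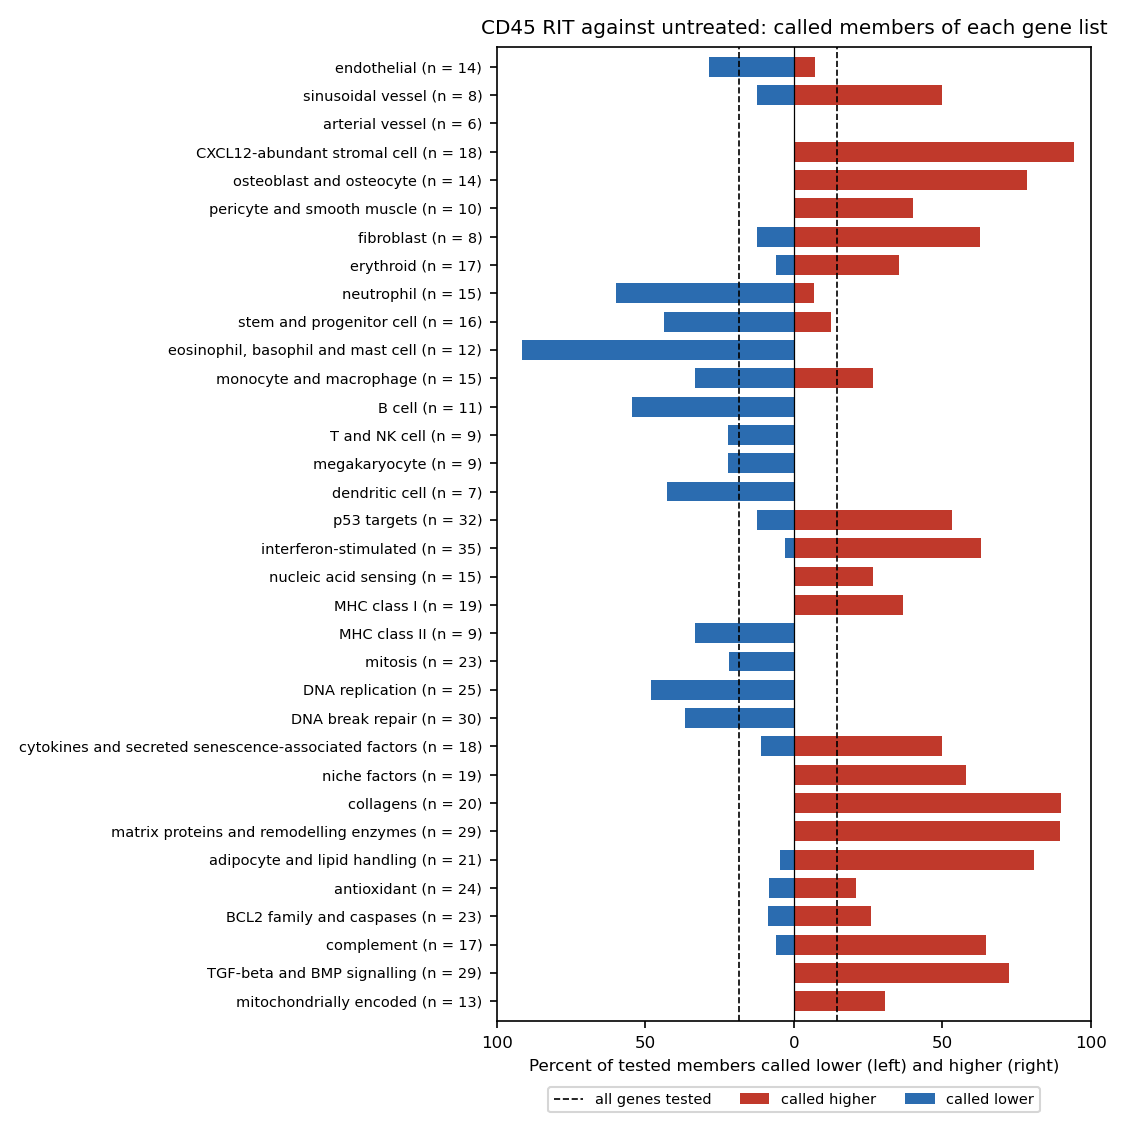
Percent of tested members called higher (red, right) or lower (blue, left) for each gene list in CD45 RIT against untreated, with the share of all genes tested as dashed lines (14.5% higher, 18.6% lower) and the number tested in parentheses. Stromal, collagen and matrix lists have 17 of 18, 18 of 20 and 26 of 29 members higher, and the eosinophil, basophil and mast cell list has 11 of 12 lower.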

How the data were processed

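The authors deposited 1 table of raw counts per gene for 55335 genes, with no normalization visible in the values. The submitters' processing notes name STAR 2.7.7a, FastQC 0.11.9 and edgeR 3.36.0 and list a human build, while the table's gene coordinates match GENCODE M21 (GRCm38) for all 54587 identifiers found there. The counter and its strand setting are not given in the sources used here, so overlapping and antisense genes cannot be separated. RNA was amplified with SMART-Seq v4 and tagmented with Nextera XT, per the labels' protocols.

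Genes were kept by filterByExpr (minimum count 10, minimum total 15), which left 21509. edgeR 4.0.16 in R 4.3.3 fitted 1 coefficient per group to all 14 libraries with TMM factors (robust quasi-likelihood test), and p-values were adjusted by Benjamini-Hochberg over all genes tested at a threshold of 0.05. The SE is the fold change over the square root of F. CPM used TMM-scaled library sizes, and list sums used total counts. The floor for a count of 0 was 3 counts per library. Alternatives were other scalings, no filter, DESeq2 1.42.0, fewer libraries, a replicate block, leaving out each library and, chosen after seeing the data, leaving out TBI replicate 6.

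The comparison and the gene lists were chosen with earlier results of these data known. Genes named were the 10 widest gaps in each direction among called genes (mean log2 CPM of at least 3, no overlap, no predicted genes or pseudogenes), up to 4 called members per list by the gap, a set of reporter, sort and damage genes, and the 5 widest splits of each kind. Other members were named after their values were seen. Separation of the groups in named genes therefore partly reflects how the genes were chosen. Ahsp was not analysed here, and a few genes that these rules name are not reported here.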

Additional observations from a re-analysis of the deposited data

Results flagged for a closer look

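In 8 of the 133 named genes, 1 untreated library stood far from the other 3 (Dixon's gap ratio). Chance flags about 1 in 20 such groups, so the count of flagged genes is near what chance alone would give. Untreated replicate 3 was the outlying library for Pax5, at 24.3 CPM against 4.72 to 7.80 in the other 3. It was also high for Rag1, at 13.6 CPM against 1.89 to 3.67, and for Ebf1, at 164 CPM against 56.3 to 71.5. The same library was low for Erg, at 5.54 CPM against 7.55 to 7.75, and for Tnc, at 79.1 CPM against 129 to 135. Untreated replicate 2 was high for Vegfc, at 21.7 CPM against 6.84 to 7.73, for Timp1, at 15.0 CPM against 7.24 to 8.51, and for Phlda3, at 19.8 CPM against 7.38 to 9.30. In all 8 genes both CD45 RIT libraries lay outside the untreated range with that library included.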

How the results depend on the processing

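The fit called 5840 to 11346 genes when each library of the comparison was left out in turn, 2439 to 4039 of them higher and 3389 to 7307 lower. The highest count in either direction came without CD45 RIT replicate 1, with 11346 genes called. With no scaling factors 1796 genes were higher and 6107 lower. With only the 6 libraries of the 2 groups the fit called 3995, of which 1798 were higher and 2197 lower. Median-of-ratios factors gave 7304 calls, no filter 6125 and DESeq2 9247, of which 47.3% were higher, with a median log2 fold change of all genes of -0.125. Deviations from the group mean correlated at 0.00899 and 0.0432 between same-numbered libraries. With 2 CD45 RIT libraries, 1 deviation is the negative of the other, so these values cannot decide whether the numbers pair libraries. With a replicate block 4062 genes were called, 1645 higher and 2417 lower, and of the 7116 calls 3972 were kept. The fit without TBI replicate 6, a choice made after seeing the data, called 7445, of which 3305 were higher and 4140 lower.

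Of the 133 genes named with a fold change, 3 lost their call with median-of-ratios factors, 7 with no scaling factors, 2 with no filter, 11 with only the 6 libraries and 12 with the replicate block, among them Fas, Pmaip1 and Cd83 (adjusted p = 0.0737, 0.0553 and 0.158). Calls were also lost without CD45 RIT replicate 1 or 2. Without replicate 2 the called genes Kdr and Vps50 changed sign as well (log2 fold changes -3.63 and -2.30). DESeq2 gave an adjusted p for 127 of the 133 genes and lost 1 call. Log2 fold changes turned with the library left out in the genes that divide the CD45 RIT libraries, from the lowest to the highest value. These ranges were -13.20 to 1.17 for Rhd, -11.69 to 1.93 for Slc43a1, -14.82 to 2.07 for Nt5c3, -10.47 to 1.52 for Tspan33 and -11.66 to 0.97 for Cldn13. They were -2.30 to 7.02 for Vps50, -12.13 to 2.82 for Zfp143, -11.83 to 3.01 for Dhx35, -12.16 to 2.66 for Vps8, -12.32 to 2.32 for Prkch and -3.63 to 7.77 for Kdr. With no scaling factors Rhd, Tspan33 and Cldn13 turned to -0.56, -0.21 and -0.76, and with the replicate block to -0.32, -0.037 and -0.59. Cldn13 was at -0.076 with no filter and at -0.072 with only the 6 libraries. Rhd, Tspan33 and Cldn13 had adjusted p-values of 0.923, 0.755 and 1 in the test of all 14 libraries.

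A group of 2 libraries gives few degrees of freedom, so the spread was estimated over all groups, and leaving out 1 CD45 RIT library assumes that the other varies like the remaining groups. A count of 0 limits a level to under 0.183 CPM in CD45 RIT replicate 1 and 0.144 CPM in replicate 2. Amplified reads without molecular identifiers are not independent molecules, and in replicate 2 many genes seen in all 12 other libraries had 3 counts or fewer. These limits cover counting error only.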

Other observations

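Classes of transcript outside the gene lists are given beside the 14.5% of all genes called higher and the 18.6% called lower, with no test between classes. Of 3286 pseudogenes tested, 131 (3.99%) were higher and 689 (20.97%) lower in CD45 RIT than in untreated libraries. Of 2659 long non-coding RNAs 313 (11.8%) were higher and 494 (18.6%) lower, the latter equal to the share of all genes. Of 38 other small RNA genes grouped by the annotation as miscellaneous, 11 (28.9%) were higher and 2 (5.26%) lower.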
